A study of Brassica rapa subsp. chinensis with 24 samples.

Results

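The circadian clock genes described here are the rows of a transcript table of Choy-sum, a leaf crop of the species Brassica rapa (subsp. chinensis), that carry the identifiers of 10 Arabidopsis clock genes: CCA1 (AT2G46830), LHY (AT1G01060), RVE8 (AT3G09600), PRR9 (AT2G46790), PRR7 (AT5G02810), PRR5 (AT5G24470), TOC1 (AT5G61380), GI (AT1G22770), ELF4 (AT2G40080) and LUX (AT3G46640). The rows of each identifier were summed in each library. Of the 10 identifiers 9 had rows, 36 in all, among the 20564 identifiers and 66566 rows of the table, and LUX was not analysed here. Wild-type plants were grown in peat-moss soil under a daily light and dark cycle, from seeds dressed with SAB, a consortium of Streptomyces, Agromyces and Bacillus, or from untreated seeds soaked in magnesium sulfate. Whole roots and whole leaves were taken at day 18, the mature stage before flowering, and at day 8, the true leaf stage. Each of the 8 groups held 3 libraries of polyadenylated RNA from independent biological replicates, 24 in all, with SAB and untreated plants for each tissue and day.

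The plant clock, known best from Arabidopsis, is a set of transcription factors that repress each other in turn through the day. CCA1 and LHY peak around dawn, PRR9, PRR7 and PRR5 follow in that order through the day, and TOC1, GI and ELF4 peak towards evening, so that transcript levels of these genes in a plant depend on the hour at which it is harvested. In the Brassica lineage the genome was triplicated, and several Brassica genes can match the same Arabidopsis gene, so a sum over rows may join copies.

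Levels are CPM, estimated counts per library size after TMM scaling over the 24 libraries, whose own totals were 28068078 to 37999455 estimated counts. A difference is a log2 fold from edgeR's quasi-likelihood test with its standard error (SE), and it was called where the Benjamini-Hochberg adjusted p over all identifiers tested was below 0.05. The tissue labels held: 6 leaf marker genes summed to 48600 to 117000 CPM in leaves and 17.3 to 334 CPM in roots, and 7 root marker genes summed to 1200 to 2780 CPM in roots and 2.1 to 22.6 CPM in leaves, where the Casparian strip regulator MYB36 was listed at 0 in all libraries of 3 of 4 groups. Untreated root replicate 3 of day 8 stood apart, with a mean rank correlation of 0.962 to its own group, against 0.975 and 0.976 for the other replicates. In whole organs, fewer cells of a type and less RNA per cell cannot be told apart. The harvest hour is not given in the sources used here, so plant age and a different harvest hour at day 18 and day 8 cannot be told apart.

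In leaves each of the 9 clock genes had a larger fold between the sampling days than between SAB and untreated plants, and in roots this did not hold for ELF4 and RVE8. In leaves, CCA1, LHY, PRR9 and RVE8 were higher at day 18 than at day 8, and PRR5, TOC1, ELF4, GI and PRR7 were lower, in SAB and in untreated plants. In roots CCA1 and LHY were also higher at day 18 and PRR5 and TOC1 lower, by smaller folds than in leaves. PRR7 was lower in roots too, by folds close to those in leaves. The SAB effect passed the test in 0 of 9 clock genes in each tissue and at each day. Of all identifiers 14.4% passed in leaves at day 18 and 0.424% in leaves at day 8. The shares were 0.764% in roots at day 18 and 0.0738% in roots at day 8.

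**Figure D1:**
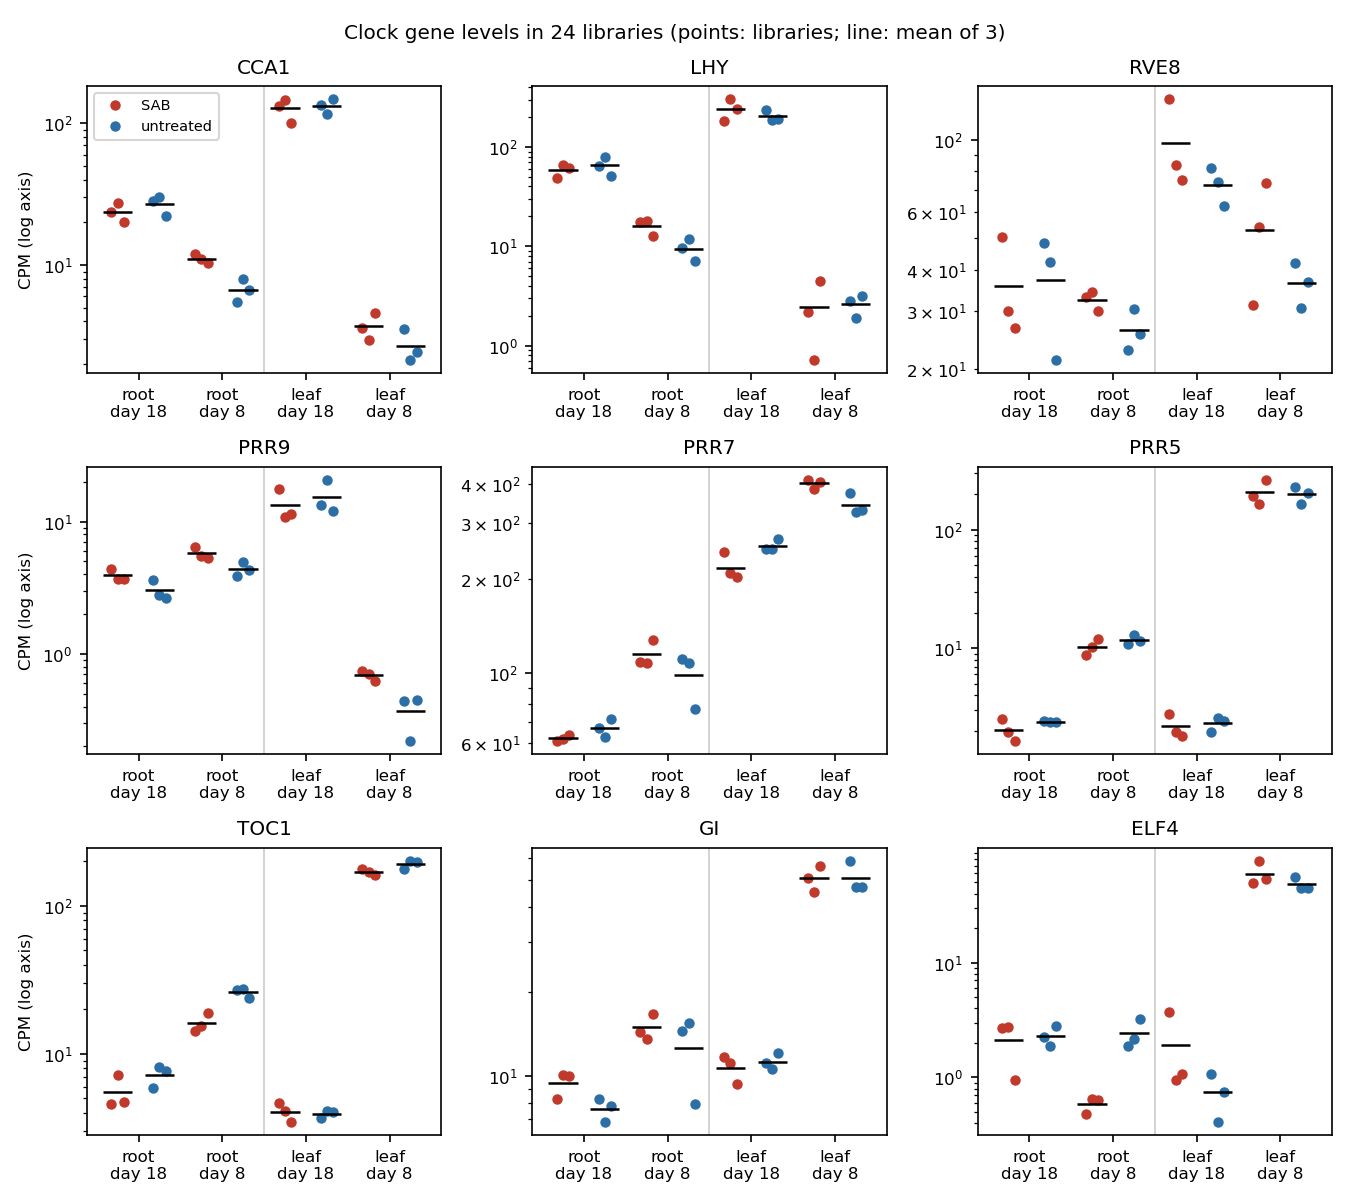
Level of each clock gene (CPM, log axis) in each of the 24 libraries, with root groups left of leaf groups, day 18 left of day 8 and SAB left of untreated plants within each; points are libraries and lines group means. In leaves CCA1 and LHY stood at 101 CPM or more in every library of day 18 and at 4.62 CPM or less in every library of day 8, while PRR5 and TOC1 stood at 4.63 CPM or less at day 18 and at 163 CPM or more at day 8.

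The morning genes encode MYB-like factors. CCA1 and LHY bind the promoters of evening genes and repress them. In SAB leaves, CCA1 stood at 133, 146 and 101 CPM at day 18, against 3.57, 2.94 and 4.62 CPM at day 8. In untreated leaves it stood at 134, 117 and 148 CPM at day 18, against 3.53, 2.14 and 2.43 CPM at day 8. Every library of day 18 lay far above every library of day 8, and the log2 fold was 5.13 (SE 0.24, adjusted p = 1.72e-07 by edgeR) in SAB leaves and 5.63 (SE 0.24, adjusted p = 1.89e-07 by edgeR) in untreated leaves. LHY, the close relative of CCA1, stood at 184, 304 and 242 CPM in SAB leaves of day 18, against 2.16, 0.715 and 4.47 CPM at day 8. In untreated leaves LHY stood at 236, 188 and 193 CPM at day 18, against 2.80, 1.88 and 3.18 CPM at day 8. The days did not overlap here either, and the log2 fold was 6.68 (SE 0.52, adjusted p = 3.1e-06 by edgeR) in SAB leaves and 6.30 (SE 0.51, adjusted p = 6.59e-06 by edgeR) in untreated leaves. RVE8, an activator of evening genes from the same MYB-like family, moved much less. It stood at 133, 83.9 and 75.4 CPM in SAB leaves of day 18, against 31.4, 54.0 and 73.6 CPM at day 8, where the days nearly met. In untreated leaves RVE8 stood at 81.7, 74.2 and 62.7 CPM at day 18, against 42.1, 30.6 and 36.7 CPM at day 8, with no overlap. Its log2 fold was 0.91 (SE 0.29, adjusted p = 0.0245 by edgeR) in SAB leaves and 1.00 (SE 0.30, adjusted p = 0.0197 by edgeR) in untreated leaves. The call in SAB leaves was lost with the replicate number as a block (log2 fold 0.89, edgeR adjusted p = 0.0501) and without SAB replicate 1 of day 8 (edgeR adjusted p = 0.0701), replicate 2 of day 8 (0.0597) or replicate 1 of day 18 (0.101). The call in untreated leaves was lost without untreated replicate 2 of day 8 (edgeR adjusted p = 0.0752), replicate 3 of day 8 (0.0533) or replicate 1 of day 18 (0.0553).

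PRR9, PRR7 and PRR5 encode pseudo-response regulators, which repress CCA1 and LHY in succession after dawn, and they did not move together. PRR9, the earliest of them, stood at 17.7, 10.9 and 11.4 CPM in SAB leaves of day 18, against 0.743, 0.705 and 0.628 CPM at day 8. In untreated leaves it stood at 13.4, 20.6 and 12 CPM at day 18, against 0.443, 0.220 and 0.452 CPM at day 8. PRR9 was thus high at day 18 in every leaf library, with a log2 fold of 4.28 (SE 0.32, adjusted p = 2.41e-06 by edgeR) in SAB leaves and 5.34 (SE 0.34, adjusted p = 1.59e-06 by edgeR) in untreated leaves. PRR7 stood at 243, 208 and 202 CPM in SAB leaves of day 18, against 412, 385 and 407 CPM at day 8. In untreated leaves PRR7 stood at 248, 248 and 268 CPM at day 18, against 376, 326 and 331 CPM at day 8. It was lower at day 18 without overlap, but stayed abundant on both days, with a log2 fold of -0.86 (SE 0.10, adjusted p = 3.48e-05 by edgeR) in SAB leaves and -0.44 (SE 0.09, adjusted p = 0.00396 by edgeR) in untreated leaves. PRR5, the latest of them, stood at 2.80, 1.98 and 1.82 CPM in SAB leaves of day 18, against 193, 164 and 262 CPM at day 8. In untreated leaves PRR5 stood at 1.95, 2.57 and 2.44 CPM at day 18, against 229, 164 and 203 CPM at day 8. PRR5 thus moved opposite to PRR9, with a log2 fold of -6.52 (SE 0.26, adjusted p = 6.79e-08 by edgeR) in SAB leaves and -6.42 (SE 0.26, adjusted p = 1.07e-07 by edgeR) in untreated leaves.

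The evening genes were lower in leaves at day 18. TOC1, a pseudo-response regulator that represses CCA1 and LHY at night, stood at 4.63, 4.11 and 3.46 CPM in SAB leaves of day 18, against 177, 169 and 163 CPM at day 8. In untreated leaves TOC1 stood at 3.68, 4.09 and 4.06 CPM at day 18, against 177, 201 and 199 CPM at day 8. Libraries within a group lay close together, and the log2 fold was -5.35 (SE 0.13, adjusted p = 2.16e-09 by edgeR) in SAB leaves and -5.61 (SE 0.13, adjusted p = 1.77e-09 by edgeR) in untreated leaves. GI, a large plant protein that links the clock to flowering time, stood at 11.7, 11.1 and 9.34 CPM in SAB leaves of day 18, against 51.0, 45.3 and 56.2 CPM at day 8. In untreated leaves GI stood at 11.1, 10.6 and 12.1 CPM at day 18, against 58.6, 47.4 and 47.3 CPM at day 8. GI was lower at day 18 in every library, by a log2 fold of -2.21 (SE 0.13, adjusted p = 6e-07 by edgeR) in SAB leaves and -2.18 (SE 0.13, adjusted p = 1.08e-06 by edgeR) in untreated leaves. ELF4, a subunit of the evening complex with ELF3 and LUX, stood at 3.69, 0.958 and 1.07 CPM in SAB leaves of day 18, against 49.1, 76.9 and 53.5 CPM at day 8. In untreated leaves ELF4 stood at 1.08, 0.409 and 0.753 CPM at day 18, against 55.5, 44.4 and 45.0 CPM at day 8. The days were far apart, and the log2 fold was -4.94 (SE 0.48, adjusted p = 1.4e-05 by edgeR) in SAB leaves and -6.02 (SE 0.53, adjusted p = 1.17e-05 by edgeR) in untreated leaves. The lowest library held 11.0 estimated counts of ELF4, 5.77 of PRR9 and 17.2 of LHY, and the folds against such low levels are imprecise.

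In SAB leaves 4 of 9 clock genes were called higher and 5 lower at day 18, where 25.8% of all identifiers tested were called higher and 23.6% lower. In untreated leaves 4 were called higher and 5 lower, where 20% of all identifiers were called higher and 20.5% lower, so a call by itself is common in this comparison. The median log2 fold over all identifiers was 0.04 for SAB and 0.01 for untreated leaves, and 6 of the clock genes lay more than 4 log2 units from it in both treatments. Without scaling of the library totals the median of all identifiers in SAB leaves moved by 0.33, which changed the direction of 0 of the 9. In SAB leaves the leaf markers summed to 48600 to 56400 CPM at day 18 against 96800 to 117000 CPM at day 8, and the sums overlapped between the days in untreated leaves, at 73500 to 95600 CPM against 88700 to 110000 CPM. Of the 6 leaf markers 0 were called higher and 4 lower at day 18 in SAB leaves, and 1 higher and 2 lower in untreated leaves, and their part in these results was not tested.

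**Figure D2:**
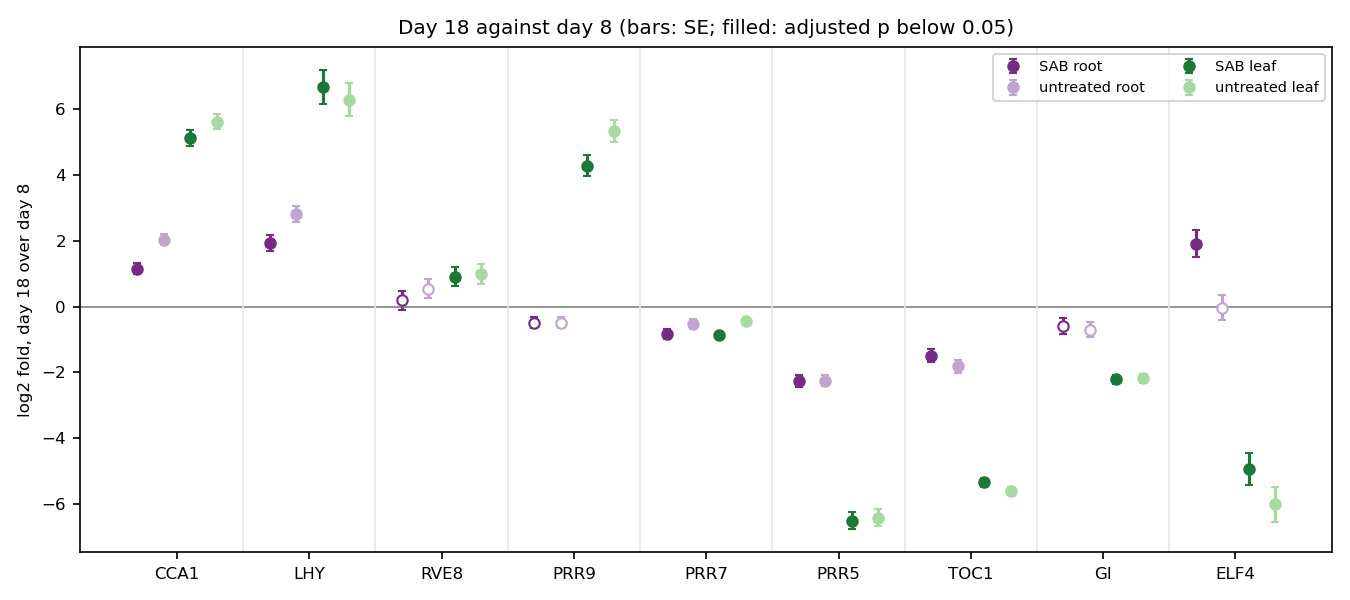
Log2 fold of day 18 over day 8 for each clock gene (edgeR, bars are ± 1 SE), with SAB roots, untreated roots, SAB leaves and untreated leaves from left to right. In leaves CCA1, LHY and PRR9 lay between 4.28 and 6.68 and PRR5, TOC1 and ELF4 between -6.52 and -4.94, while in roots all 9 genes lay between -2.27 and 2.82.

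In roots CCA1 and LHY were again higher and PRR5 and TOC1 again lower at day 18. CCA1 stood at 23.5, 27.3 and 20.2 CPM in SAB roots of day 18, against 11.9, 11.0 and 10.4 CPM at day 8. In untreated roots CCA1 stood at 28.2, 30.0 and 22.1 CPM at day 18, against 5.48, 7.98 and 6.64 CPM at day 8. The days did not overlap, with a log2 fold of 1.15 (SE 0.17, adjusted p = 0.000753 by edgeR) in SAB roots and 2.04 (SE 0.18, adjusted p = 0.000155 by edgeR) in untreated roots. LHY stood at 48.9, 65.4 and 62.0 CPM in SAB roots of day 18, against 17.4, 17.9 and 12.6 CPM at day 8. In untreated roots LHY stood at 64.5, 79.3 and 51.6 CPM at day 18, against 9.54, 11.8 and 7.02 CPM at day 8. LHY was several times higher at day 18 in each treatment, with a log2 fold of 1.94 (SE 0.24, adjusted p = 0.000268 by edgeR) in SAB roots and 2.82 (SE 0.25, adjusted p = 0.000156 by edgeR) in untreated roots.

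PRR5 stood at 2.55, 1.96 and 1.65 CPM in SAB roots of day 18, against 8.71, 10.2 and 12 CPM at day 8. In untreated roots PRR5 stood at 2.44, 2.40 and 2.37 CPM at day 18, against 10.8, 13 and 11.4 CPM at day 8. It was low in all 6 root libraries of day 18, by a log2 fold of -2.27 (SE 0.18, adjusted p = 3.37e-05 by edgeR) in SAB roots and -2.25 (SE 0.18, adjusted p = 9.78e-05 by edgeR) in untreated roots. TOC1 stood at 4.56, 7.21 and 4.71 CPM in SAB roots of day 18, against 14.2, 15.5 and 18.8 CPM at day 8. In untreated roots TOC1 stood at 5.89, 8.20 and 7.61 CPM at day 18, against 27.2, 27.5 and 23.9 CPM at day 8. TOC1 was lower without overlap, by a log2 fold of -1.50 (SE 0.20, adjusted p = 0.000441 by edgeR) in SAB roots and -1.82 (SE 0.21, adjusted p = 0.000443 by edgeR) in untreated roots. PRR7 stood at 60.9, 62.0 and 63.7 CPM in SAB roots of day 18, against 109, 108 and 128 CPM at day 8, a log2 fold of -0.83 (SE 0.15, adjusted p = 0.002 by edgeR). In untreated roots PRR7 stood at 67.1, 62.5 and 71.4 CPM at day 18, against 111, 108 and 77.2 CPM at day 8, a log2 fold of -0.53 (SE 0.15, adjusted p = 0.0351 by edgeR). The lowest day 8 value, 77.2 CPM, belongs to the replicate that stood apart, and without it the log2 fold of PRR7 in untreated roots was -0.70 (edgeR adjusted p = 0.00154). The call of PRR7 in untreated roots was kept in 10 of 19 alternatives. It was lost with the replicate number as a block (edgeR adjusted p = 0.0689), without scaling of the library totals (0.0575) and without any of 7 single libraries (0.0534 to 0.108). These were untreated replicates 1 and 2 of day 8, SAB replicates 1 and 2 of day 8 and untreated replicates 1, 2 and 3 of day 18.

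None of ELF4, PRR9, GI and RVE8 was called by edgeR between the days in both root treatments. ELF4 stood at 2.72, 2.74 and 0.948 CPM in SAB roots of day 18, against 0.478, 0.645 and 0.641 CPM at day 8, a log2 fold of 1.92 (SE 0.40, adjusted p = 0.00459 by edgeR). In untreated roots ELF4 stood at 2.24, 1.89 and 2.78 CPM at day 18, against 1.88, 2.17 and 3.25 CPM at day 8, a log2 fold of -0.03 (SE 0.37, adjusted p = 0.965 by edgeR). The lowest ELF4 values in roots were thus those of SAB roots at day 8, and the days overlapped in untreated roots only. PRR9 stood at 3.69 to 4.40 CPM in SAB roots of day 18, against 5.29 to 6.46 CPM at day 8, and at 2.64 to 3.63 CPM in untreated roots of day 18, against 3.87 to 4.96 CPM at day 8. The days did not overlap, but the log2 fold of -0.49 (SE 0.17) did not pass the test in SAB roots (edgeR adjusted p = 0.0558) or in untreated roots (log2 fold -0.49, SE 0.17, edgeR adjusted p = 0.0801). PRR9 in SAB roots was called lower by DESeq2 (adjusted p = 0.0471), by limma-voom (0.0493) and by edgeR without scaling (0.0276), without untreated replicate 3 of day 8 (0.0425) or without untreated replicate 1 of day 18 (0.0421). In untreated roots PRR9 was called lower by edgeR without untreated replicate 1 of day 18 (adjusted p = 0.0462). GI stood at 8.28 to 10.1 CPM in SAB roots of day 18, against 13.5 to 16.7 CPM at day 8, a log2 fold of -0.59 (SE 0.23, adjusted p = 0.0817 by edgeR). In untreated roots GI stood at 6.84 to 8.28 CPM at day 18, against 14.5, 15.5 and 7.96 CPM at day 8, a log2 fold of -0.70 (SE 0.23, adjusted p = 0.0638 by edgeR). Without the replicate that stood apart, which held the 7.96 CPM, GI was called lower in untreated roots (log2 fold -0.96, edgeR adjusted p = 0.00231) and in SAB roots (log2 fold -0.60, edgeR adjusted p = 0.00461). The comparison of days in SAB roots does not hold that replicate, and its log2 fold hardly moved. That call thus came through the fit that the root libraries share. A single edgeR fit of all 24 libraries also called GI lower in untreated roots (adjusted p = 0.0113) and in SAB roots (0.0128), and DESeq2 did in untreated roots (0.0329). RVE8 overlapped between the days in both treatments, with a log2 fold of 0.19 (SE 0.30, adjusted p = 0.691 by edgeR) in SAB roots and 0.55 (SE 0.30, adjusted p = 0.244 by edgeR) in untreated roots.

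In SAB roots 3 of 9 clock genes were called higher and 3 lower at day 18, where 15.3% of all identifiers tested were called higher and 12.1% lower. In untreated roots 2 were called higher and 3 lower, where 8.22% of all identifiers were called higher and 8.25% lower. Without untreated root replicate 3 of day 8 the counts were 3 higher and 5 lower in SAB roots and 2 higher and 4 lower in untreated roots. The comparison of days in SAB roots does not hold that library, so its counts moved only through the fit that the root libraries share. The share of all identifiers called in this fit is not given here, and no result is read from these counts. The root markers had lower sums at day 18 without overlap, of 1200 to 1240 CPM in SAB roots against 2610 to 2780 CPM at day 8, and of 1500 to 1790 CPM in untreated roots against 2230 to 2590 CPM at day 8. Of the 7 root markers 0 were called higher and 4 lower in each treatment. Among them was the root hair gene EXPA7, with a log2 fold of -1.01 (SE 0.11) in SAB roots and -1.16 (SE 0.11) in untreated roots. Not called in SAB roots were NRT2.1 (log2 fold -0.17, SE 0.29), MYB36 (-0.17, SE 0.18) and RSL4 (-0.32, SE 0.17). Not called in untreated roots were NRT2.1 (log2 fold 0.63, SE 0.29), RSL4 (-0.31, SE 0.17) and COBL9 (0.01, SE 0.19). The part of the root markers in the results for roots was not tested.

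The difference between the days was itself compared between the tissues, in a test added after the data were seen. In SAB plants the log2 fold of day 18 over day 8, root minus leaf, was -4.00 (SE 0.29) for CCA1, -4.77 (SE 0.53) for LHY and -4.81 (SE 0.36) for PRR9. The largest edgeR adjusted p of these was 2.65e-06, for LHY. For PRR5, TOC1, GI and ELF4 the difference was positive, at 4.22 (SE 0.29), 3.83 (SE 0.24), 1.59 (SE 0.26) and 6.83 (SE 0.66), where PRR5 and TOC1 were less far below their day 8 level in roots than in leaves and ELF4, lower at day 18 in SAB leaves, was called higher in SAB roots. In SAB plants 4 of 9 clock genes were thus called higher and 3 lower, against 15.7% and 14.5% of all identifiers. In untreated plants the same 4 were called higher and the same 3 lower, against 10.8% and 10.4% of all identifiers. RVE8 and PRR7 were not called. For PRR7 the difference was 0.00 (SE 0.17) in SAB plants and -0.13 (SE 0.17) in untreated plants, close to 0 on the scale of the other genes.

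The order of the tissues turned over between the days for several genes. At day 8 CCA1 averaged 11.1 ± 0.748 CPM in SAB roots and 3.71 ± 0.845 CPM in SAB leaves (SD, n = 3 each), a log2 fold of root over leaf of 1.58 (SE 0.21, adjusted p = 1.8e-06 by edgeR). At day 18 it averaged 23.7 ± 3.53 CPM in SAB roots and 127 ± 23.0 CPM in SAB leaves, a log2 fold of -2.42 (SE 0.20, adjusted p = 3.05e-09 by edgeR). CCA1 was thus higher in roots at day 8 and higher in leaves at day 18. LHY and PRR9 turned the same way. In SAB plants the log2 fold of root over leaf of LHY was 2.72 (SE 0.40, adjusted p = 6.07e-06 by edgeR) at day 8 and -2.05 (SE 0.36, adjusted p = 5.31e-05 by edgeR) at day 18. That of PRR9 was 3.05 (SE 0.27, adjusted p = 5.19e-09 by edgeR) at day 8 and -1.76 (SE 0.24, adjusted p = 2.23e-06 by edgeR) at day 18. TOC1 turned the other way: it averaged 16.2 ± 2.36 CPM in SAB roots and 170 ± 7.27 CPM in SAB leaves at day 8, and 5.49 ± 1.49 CPM in SAB roots and 4.06 ± 0.586 CPM in SAB leaves at day 18. Its log2 fold of root over leaf was -3.39 (SE 0.17, adjusted p = 1.64e-12 by edgeR) at day 8 and 0.43 (SE 0.17, adjusted p = 0.0326 by edgeR) at day 18, and limma-voom did not call the later value (adjusted p = 0.114). Nor did edgeR without SAB leaf replicate 2 (adjusted p = 0.064), SAB leaf replicate 3 (0.142) or SAB root replicate 2 (0.316) of day 18. In untreated plants the fold of TOC1 was -2.88 (SE 0.17) at day 8 and 0.88 (SE 0.17, adjusted p = 0.000171 by edgeR) at day 18. ELF4 turned in untreated plants, from -4.31 (SE 0.45) at day 8 to 1.63 (SE 0.49, adjusted p = 0.00722 by edgeR) at day 18. In SAB plants of day 18 ELF4 was not called (log2 fold 0.17, SE 0.44). PRR7 was lower in roots on both days by nearly the same fold, -1.80 (SE 0.12) at day 8 and -1.80 (SE 0.12) at day 18 in SAB plants.

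At day 18, 1 of 9 clock genes was called higher and 5 lower in roots than in leaves of SAB plants, where 31.8% of all identifiers were called higher and 29.7% lower. In untreated plants 2 were called higher and 6 lower at day 18, against 33.4% and 28% of all identifiers. At day 8, 3 were called higher and 5 lower in SAB plants, against 31.7% and 29.6% of all identifiers, and 3 higher and 5 lower in untreated plants, against 32.7% and 29%. These shares of all identifiers leave little to read from the counts, and scaling matters here. Without scaling of the library totals the median log2 fold of all identifiers was 0.60 to 1.00, and 1 called clock gene turned: GI in untreated plants at day 18 had a log2 fold of root over leaf of -0.56 (SE 0.19, adjusted p = 0.015 by edgeR) with scaling, and 0.21 (edgeR adjusted p = 0.375) without. Folds that were not called turned for RVE8 at day 8, at 0.25 without scaling and -0.71 with it in SAB plants, and at 0.29 and -0.47 in untreated plants. They also turned in SAB plants at day 18 for GI, at 0.38 and -0.18, and for PRR5, at 0.46 and -0.10. In untreated plants at day 18, PRR5 was called higher without scaling (log2 fold 0.81, edgeR adjusted p = 0.00326), and the call of RVE8 as lower was lost (log2 fold -0.20, edgeR adjusted p = 0.593).

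Ordered by mean level, CCA1 ran from leaves of day 18 through roots of day 18 and roots of day 8 down to leaves of day 8, and LHY in the same order. At each of these steps between tissue and day the libraries of neighbouring groups did not overlap, while SAB and untreated groups of the same tissue and day overlapped except in roots at day 8. PRR5 and TOC1 ran from leaves of day 8 through roots of day 8 to the 4 groups of day 18, whose neighbours in the order all overlapped. GI had the same top group, leaves of day 8, and below it every neighbour overlapped. PRR7 was highest in leaves of day 8, followed by leaves of day 18, roots of day 8 and roots of day 18, with no overlap among the 4 leaf groups. PRR9 was highest in leaves of day 18 and lowest in leaves of day 8, with the roots between them. For RVE8 every pair of neighbours overlapped. ELF4 stood apart in leaves of day 8 alone, and all 6 other groups overlapped their neighbours.

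The SAB effect was the study's own comparison. In leaves at day 18, the comparison with the most SAB calls (14.4% of all identifiers), 0 of 9 clock genes were called. CCA1 averaged 127 ± 23.0 CPM in SAB leaves and, in untreated leaves, 133 ± 15.4 CPM (SD, n = 3 each), a log2 fold of -0.05 (SE 0.19, adjusted p = 0.889 by edgeR). LHY averaged 243 ± 60.1 CPM in SAB leaves and, in untreated leaves, 206 ± 26.9 CPM, with a log2 fold of 0.26 (SE 0.39, adjusted p = 0.718 by edgeR). The values of both genes overlapped between the treatments. PRR7 alone had SAB libraries all below the untreated ones, at 243, 208 and 202 CPM against 248, 248 and 268 CPM, with a log2 fold of -0.21 (SE 0.09, adjusted p = 0.168 by edgeR). Of all identifiers tested, 14.9% had every SAB leaf library below every untreated one and 13.8% had them all above. ELF4 had a log2 fold of 1.37 (SE 0.53, adjusted p = 0.117 by edgeR), which DESeq2 called (adjusted p = 0.0323). SAB replicate 1, at 3.69 CPM, stood well above the other SAB replicates, at 0.958 and 1.07 CPM, which overlapped the untreated leaves. At an unadjusted p below 0.05 there were 2 clock genes, PRR7 and ELF4, and 5065 of 17706 identifiers. The sum of the leaf markers also differed between these groups, at 48600 to 56400 CPM in SAB leaves against 73500 to 95600 CPM in untreated leaves, and its part in these results was not tested.

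In leaves at day 8, 0 of 9 clock genes were called, where 0.424% of all identifiers were. PRR9 stood at 0.743, 0.705 and 0.628 CPM in SAB leaves, against 0.443, 0.220 and 0.452 CPM in untreated leaves. It was higher in SAB leaves without overlap but at very low levels, with a log2 fold of 0.86 (SE 0.36, adjusted p = 0.504 by edgeR), and was the only clock gene with an unadjusted p below 0.05, as were 1597 of 17706 identifiers. PRR7 was also higher without overlap, at 412, 385 and 407 CPM in SAB leaves against 376, 326 and 331 CPM in untreated leaves, with a log2 fold of 0.21 (SE 0.09, adjusted p = 0.557 by edgeR). TOC1 was lower, at 177, 169 and 163 CPM in SAB leaves against 177, 201 and 199 CPM in untreated leaves, with a log2 fold of -0.20 (SE 0.10, adjusted p = 0.65 by edgeR). Of all identifiers, 11.0% had all SAB libraries above and 8.6% all below. The change of the SAB effect between the days in leaves, day 18 minus day 8, was called in 0 of 9 clock genes (2.46% of all identifiers). It was -0.42 (SE 0.13, adjusted p = 0.131 by edgeR) for PRR7, which DESeq2 called (adjusted p = 0.0133), and -1.06 (SE 0.45, adjusted p = 0.244 by edgeR) for PRR9. These were the only clock genes with an unadjusted p below 0.05 for that change, as were 3211 identifiers.

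In roots at day 8 the SAB and untreated libraries of CCA1, LHY, PRR9, TOC1 and ELF4 did not overlap, and these differences did not pass the adjusted test. CCA1 stood at 11.9, 11.0 and 10.4 CPM in SAB roots, against 5.48, 7.98 and 6.64 CPM in untreated roots. LHY stood at 17.4, 17.9 and 12.6 CPM in SAB roots, against 9.54, 11.8 and 7.02 CPM in untreated roots. All SAB roots were above all untreated roots for both, with a log2 fold of 0.72 (SE 0.17, adjusted p = 0.137 by edgeR) for CCA1 and 0.74 (SE 0.24, adjusted p = 0.264 by edgeR) for LHY. PRR9 was higher without overlap too, at 6.46, 5.54 and 5.29 CPM in SAB roots against 3.87, 4.96 and 4.28 CPM in untreated roots, a log2 fold of 0.39 (SE 0.17, adjusted p = 0.475 by edgeR). TOC1 stood at 14.2, 15.5 and 18.8 CPM in SAB roots, against 27.2, 27.5 and 23.9 CPM in untreated roots. ELF4 stood at 0.478, 0.645 and 0.641 CPM in SAB roots, against 1.88, 2.17 and 3.25 CPM in untreated roots. Both evening genes were lower in SAB roots without overlap, with a log2 fold of -0.70 (SE 0.20, adjusted p = 0.2 by edgeR) for TOC1 and -2.04 (SE 0.40, adjusted p = 0.0851 by edgeR) for ELF4. GI, PRR7, PRR5 and RVE8 overlapped between the treatments, with log2 folds of 0.22 (SE 0.23), 0.21 (SE 0.15), -0.19 (SE 0.17) and 0.30 (SE 0.30).

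By the edgeR test 0 of 9 clock genes were called in roots at day 8, where 0.0738% of all identifiers were. At an unadjusted p below 0.05 there were 5 clock genes, CCA1, LHY, PRR9, TOC1 and ELF4, and 1948 of 18973 identifiers. DESeq2 called CCA1 higher (adjusted p = 0.0133) and TOC1 (adjusted p = 0.0451) and ELF4 (adjusted p = 0.000559) lower, in a run that called 536 identifiers against 14 by edgeR, and limma-voom called 0. Of the 9 clock genes 3 had all SAB roots above and 2 all below, where 11.7% of all identifiers tested lay all above and 11.1% all below. The sums of the leaf markers overlapped, at 20.7 to 97.1 CPM in SAB roots and 17.3 to 124 CPM in untreated roots. Without untreated replicate 3, which stood apart, the log2 fold was 0.69 for CCA1, 0.56 for LHY, -0.78 for TOC1 and -1.81 for ELF4, with 0 calls. The number of reads behind the low ELF4 values is not known, since an estimated count need not be 1 read.

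In roots at day 18 the treatments lay closer together for most of these genes. CCA1 averaged 23.7 ± 3.53 CPM in SAB roots and 26.8 ± 4.13 CPM in untreated roots (SD, n = 3 each), a log2 fold of -0.17 (SE 0.17, adjusted p = 0.8 by edgeR). TOC1 averaged 5.49 ± 1.49 CPM in SAB roots and 7.24 ± 1.2 CPM in untreated roots, a log2 fold of -0.38 (SE 0.20, adjusted p = 0.493 by edgeR). Both overlapped between the treatments. PRR9 was the only clock gene without overlap, at 4.40, 3.69 and 3.70 CPM in SAB roots against 3.63, 2.81 and 2.64 CPM in untreated roots, a log2 fold of 0.39 (SE 0.17, adjusted p = 0.4 by edgeR), and the only one with an unadjusted p below 0.05, as were 2349 identifiers. Of all identifiers tested, 6.88% had all SAB roots above all untreated roots and 9.37% had them all below. Of 9 clock genes 0 were called, where 0.764% of all identifiers were. The change of the SAB effect between the days in roots was -0.88 for CCA1 (SE 0.24, adjusted p = 0.115 by edgeR), -0.88 for LHY (SE 0.33, adjusted p = 0.27 by edgeR) and 1.95 for ELF4 (SE 0.54, adjusted p = 0.116 by edgeR). These 3 had an unadjusted p below 0.05, as did 2542 identifiers, and 0 of 9 were called, where 1.07% of all identifiers were. DESeq2 called CCA1 (adjusted p = 0.0312) and ELF4 (adjusted p = 0.0273).

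The SAB effect was also compared between the tissues. At day 8 the root minus leaf difference was -2.35 for ELF4 (SE 0.61, adjusted p = 0.0506 by edgeR), just outside the threshold, and -0.51 for TOC1 (SE 0.22, adjusted p = 0.339 by edgeR). ELF4 was called with the size factors of DESeq2 in edgeR (adjusted p = 0.0457), by DESeq2 (adjusted p = 0.00736) and with a block for root and leaf libraries that share a number (adjusted p = 0.0236). At day 18 it was -1.46 for ELF4 (SE 0.66, adjusted p = 0.363 by edgeR). Of 9 clock genes 0 were called at day 8 (2.08% of all identifiers called) and 0 at day 18 (1.02% called). ELF4 and TOC1 at day 8 and ELF4 at day 18 had an unadjusted p below 0.05, as did 2485 identifiers at day 8 and 2523 at day 18. DESeq2 called 0 at day 18.

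**Figure D3:**
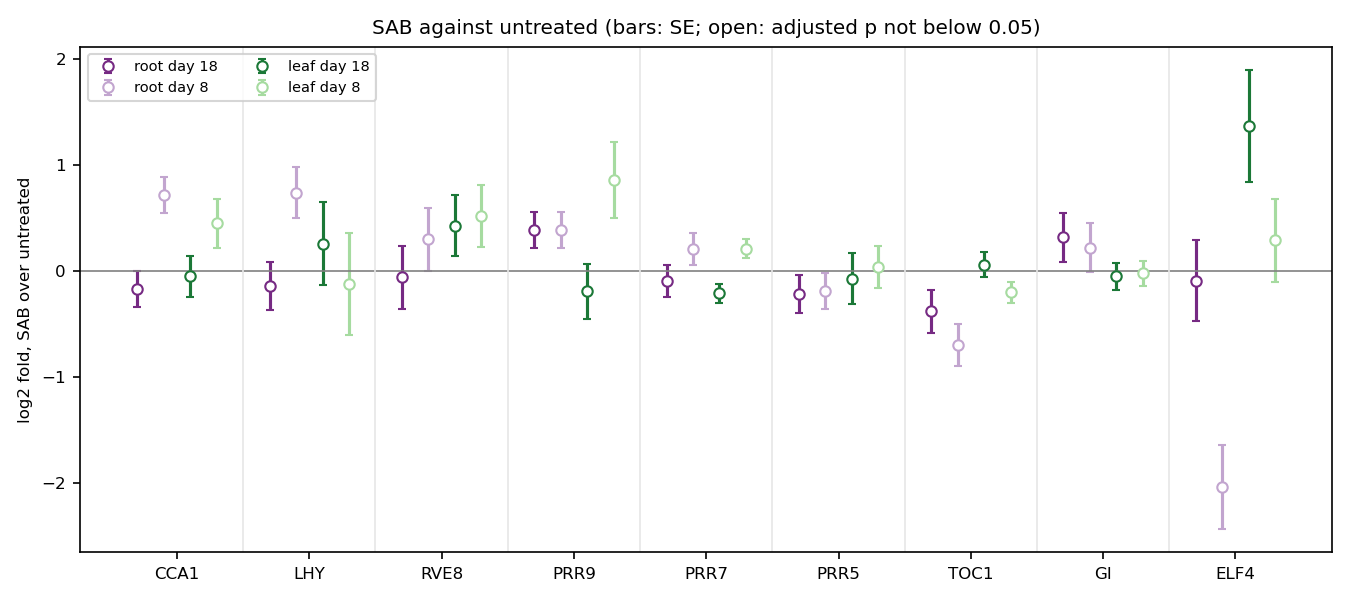
Log2 fold of SAB over untreated plants for each clock gene (edgeR, bars are ± 1 SE), with roots of day 18, roots of day 8, leaves of day 18 and leaves of day 8 from left to right. ELF4 in roots of day 8, at -2.04, and in leaves of day 18, at 1.37, lay farthest from 0. Of the 36 values 0 passed the adjusted test, where 0.0738% to 14.4% of all identifiers passed, depending on the comparison.

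To set morning against evening genes in each library, the mean log2(CPM + 1) of the evening genes TOC1, GI and ELF4 was taken from that of the morning genes CCA1, LHY and RVE8 in that library. In leaves at day 18 this value was 4.42, 4.98 and 4.76 in SAB plants, against 4.82, 4.77 and 4.65 in untreated plants. In leaves at day 8 it was -3.32, -3.56 and -2.60 in SAB plants, against -3.22, -3.53 and -3.23 in untreated plants. The treatments overlapped in leaves on both days, and the mean difference, SAB minus untreated, was -0.02 at day 18 and 0.17 at day 8. In roots at day 18 it was 2.78, 2.47 and 2.75 in SAB plants, against 2.94, 3.01 and 2.19 in untreated plants, a mean difference of -0.04. In roots at day 8 it was 1.52, 1.45 and 1.02 in SAB plants, against 0.13, 0.43 and 0.26 in untreated plants. The treatments did not overlap in roots at day 8, with a mean difference of 1.06, or 0.68 with a pseudocount of 5 CPM in place of 1. The value was positive in all 6 leaf libraries of day 18 and negative in all 6 of day 8, while roots of both days were positive, with lower values at day 8.

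**Figure D4:**
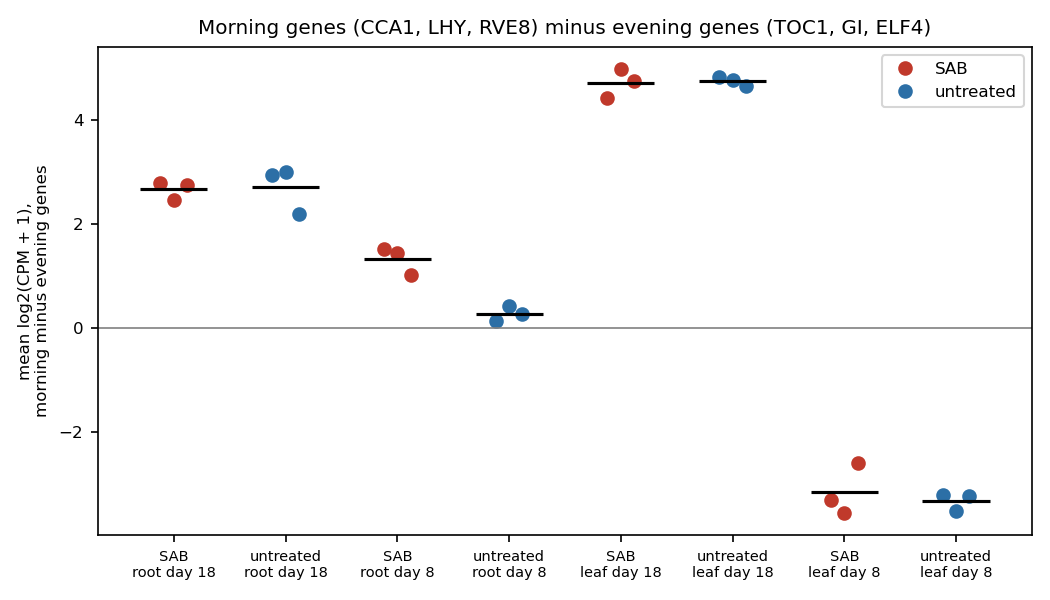
Mean log2(CPM + 1) of CCA1, LHY and RVE8 minus that of TOC1, GI and ELF4 in each library; points are libraries and bars group means, with roots left of leaves, day 18 left of day 8 and SAB left of untreated plants. Leaves lay at 4.42 to 4.98 at day 18 and -3.56 to -2.60 at day 8, and SAB roots of day 8, at 1.02 to 1.52, lay above untreated roots of day 8, at 0.13 to 0.43.

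The rows behind a sum did not always move together. CCA1, TOC1 and GI had 1 row each, so their values are those of single rows. LHY had 4 rows, of which row 1 held 72.2% of all counts. In leaves of day 8 most of the little LHY there came from row 4, with 55.5% of the sum in SAB leaves and 76.0% in untreated leaves, against 0.156% in SAB leaves and 0.00519% in untreated leaves of day 18. Row 1 of LHY alone therefore differed more between the days than the sum, at 187 ± 51.9 CPM in SAB leaves of day 18 against 0.709 ± 0.26 CPM at day 8 (SD, n = 3 each). PRR5 had 9 rows, and its pair of leading rows fell together: row 6 averaged 0.372 ± 0.367 CPM in SAB leaves of day 18 against 98.1 ± 15 CPM at day 8, and row 9 averaged 1.74 ± 0.337 CPM against 89.0 ± 16.7 CPM. Rows 5, 7 and 8 of PRR5 held 12.8, 7.51 and 9.02 CPM in SAB leaf replicate 3 of day 8 and at most 0.644 CPM in the other leaf libraries.

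PRR7 spread its counts over 8 rows, 4 of them with at least 10%. In untreated leaves, row 2 of PRR7 was lower at day 18 (log2 fold -0.85, SE 0.08, edgeR adjusted p over all rows 9.06e-05), and row 6 had a log2 fold of -0.05 (SE 0.09, adjusted p = 0.79 by edgeR). In untreated root replicate 3 of day 8, row 1 of PRR7 stood at 1.33 CPM, against 13 and 12.6 CPM in the other replicates, and row 6 at 33.7 CPM, against 16.2 and 15.7 CPM. That library thus differed in which rows carried PRR7 as well as in the sum. RVE8 had 5 rows, with 89.9% of all counts in row 1. In leaves, row 1 of RVE8 was not called between the days (log2 fold 0.73, SE 0.31, edgeR adjusted p = 0.122 in SAB and 0.138 in untreated leaves), while the small row 5 was called higher in SAB leaves (edgeR adjusted p = 0.0183) and in untreated leaves (edgeR adjusted p = 0.0192). PRR9 had 5 rows with 51.3% in row 1, and ELF4 had 2 rows with 81.6% in row 1.

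Further clock genes were taken from a list of 30, of which 24 were in the table: ELF3, PRR3, the RVE and LNK families, the F-box gene LKP2 and other regulators. In leaves 9 were higher and 8 lower at day 18 of 23 tested in SAB plants, and 7 higher and 6 lower in untreated plants. Of all identifiers 25.8% were higher and 23.6% lower in SAB leaves, and 20% higher and 20.5% lower in untreated leaves. The median log2 fold was 0.14 for SAB and -0.05 for untreated leaves. In roots 2 were higher and 4 lower of 23 in SAB plants, and 3 higher and 2 lower in untreated plants, where 15.3% of all identifiers were higher and 12.1% lower in SAB roots and 8.22% higher and 8.25% lower in untreated roots. Among rhythmic output genes of the clock, 8 were higher and 7 lower of 15 in SAB leaves, and 9 higher and 6 lower in untreated leaves, so all 15 were called in both. In roots 1 was higher and 7 lower of 14 output genes in SAB plants, and 4 higher and 5 lower in untreated plants, to be read against the same shares of all identifiers. Named after their values were seen, RVE4, a relative of RVE8, had a log2 fold of day 18 over day 8 of 2.20 (SE 0.13) in SAB leaves and 2.79 (SE 0.13) in untreated leaves. LNK3, of a family of coactivators that work with RVE8 in Arabidopsis, had 5.81 (SE 0.25) in SAB leaves and 6.72 (SE 0.27) in untreated leaves. The RNA-binding protein gene GRP7, which peaks in the evening in Arabidopsis, had -4.58 (SE 0.18) in SAB leaves and -4.81 (SE 0.18) in untreated leaves, and the cold-regulated gene COR28 had -9.29 (SE 0.65) in SAB leaves and -8.67 (SE 0.63) in untreated leaves. COR28 stood at 0 to 0.427 CPM in SAB leaves and 0 to 0.51 CPM in untreated leaves of day 18, so the size of its folds is imprecise.

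**Figure D5:**
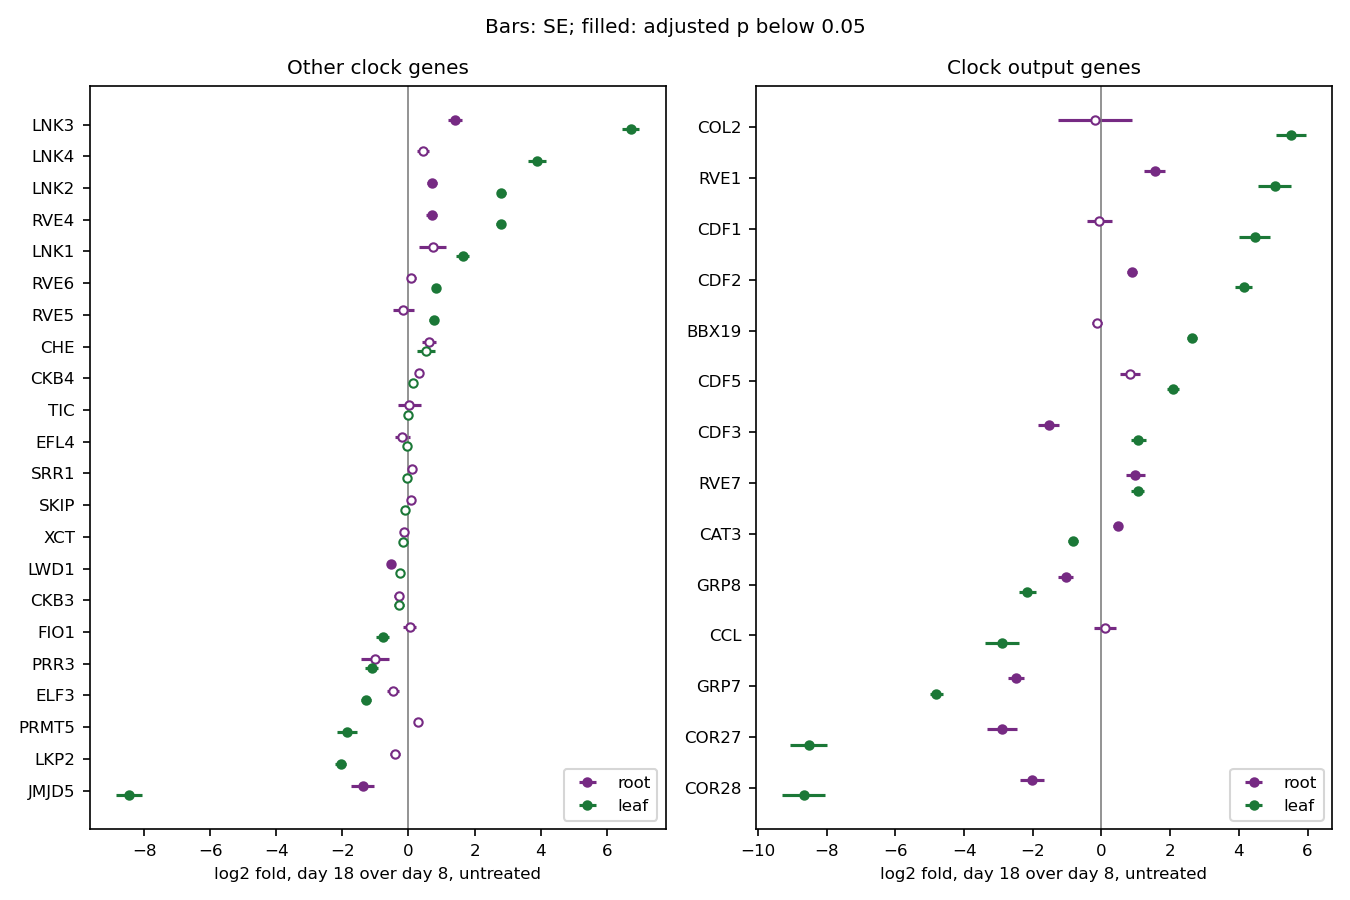
Log2 fold of day 18 over day 8 in untreated plants for the further clock genes and the output genes tested in both tissues (edgeR, bars are ± 1 SE), with roots above leaves for each gene. In leaves the values ran from COR28 at -8.67 to LNK3 at 6.72, and in roots most genes lay nearer 0.

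The SAB effect on these lists was called in a few genes, mostly in leaves at day 18, where 3 of 23 further clock genes were higher and 2 lower in SAB leaves and 14.4% of all identifiers were called. RVE6, a relative of RVE8, stood at 65.2, 57.8 and 53.6 CPM in SAB leaves, against 40.9, 37.1 and 39.1 CPM in untreated leaves, with a log2 fold of 0.61 (SE 0.12, adjusted p = 0.00792 by edgeR). RVE5, of the same family, stood at 31.7, 30.0 and 29.1 CPM in SAB leaves, against 17.1, 22.1 and 18.8 CPM in untreated leaves, with a log2 fold of 0.66 (SE 0.14, adjusted p = 0.011 by edgeR). Both were higher in SAB leaves without overlap. SKIP, a splicing factor, stood at 23.0, 22.2 and 23.1 CPM in SAB leaves, against 33.5, 31.5 and 34.0 CPM in untreated leaves, with a log2 fold of -0.52 (SE 0.12, adjusted p = 0.0139 by edgeR). PRR3, a relative of TOC1, stood at 10.9, 20.1 and 16.9 CPM in SAB leaves, against 25.3, 31.2 and 31.5 CPM in untreated leaves, with a log2 fold of -0.86 (SE 0.21, adjusted p = 0.0198 by edgeR). Both were lower without overlap, and the fifth call was EFL4, a relative of ELF4, with a log2 fold of 0.50 (SE 0.12, adjusted p = 0.0211 by edgeR). The call of RVE6 was kept in 20 of 20 alternatives. Those of RVE5 and SKIP were kept in 19 of 20, lost for RVE5 in the fit of all 24 libraries (edgeR adjusted p = 0.123) and for SKIP without scaling (0.0608). PRR3 kept its call in 16 of 20, and lost it in the fits of all 24 (edgeR adjusted p = 0.105) or only 6 libraries (0.0979) and without untreated replicate 2 (0.0558) or 3 (0.0502) of day 18. EFL4 kept its call in 15 of 20, and lost it in the fits of all 24 (edgeR adjusted p = 0.121) or only 6 libraries (0.0678) and without SAB replicate 3 (0.0681) or untreated replicate 1 (0.0755) or 3 (0.064) of day 18.

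Of 15 output genes tested in leaves at day 18, 0 were higher and 2 lower in SAB leaves, a share close to the 14.4% of all identifiers. RVE7, an MYB-like relative of CCA1, stood at 3.88, 5.97 and 6.21 CPM in SAB leaves, against 16.2, 18.8 and 19.2 CPM in untreated leaves, with a log2 fold of -1.74 (SE 0.20, adjusted p = 0.00062 by edgeR). The groups lay far apart at day 18 and overlapped at day 8, where RVE7 stood at 11.2, 13.4 and 8.98 CPM in SAB leaves, against 9.41, 8.89 and 7.84 CPM in untreated leaves. The change of the SAB effect between the days was -2.09 for RVE7 (SE 0.28, adjusted p = 0.0109 by edgeR). COL2, a relative of the flowering gene CONSTANS, stood at 25.4, 26.7 and 15.6 CPM in SAB leaves of day 18, against 58.7, 46.3 and 50.5 CPM in untreated leaves, with a log2 fold of -1.19 (SE 0.34, adjusted p = 0.0406 by edgeR). COL2 was lower without overlap, but the call was kept in only 9 of 20 alternatives and lost without any single library of day 18 (edgeR adjusted p = 0.0607 to 0.11). In roots at day 8, JMJD5, a histone demethylase gene, was the only call on the lists, below the level set for naming genes and named after its values were seen. It stood at 0.336, 0.372 and 0.575 CPM in SAB roots, against 2.46, 2.69 and 2.07 CPM in untreated roots, a log2 fold of -2.50 (SE 0.36, adjusted p = 0.0443 by edgeR), and was called in 5 of 20 alternatives.

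Which transcripts followed the clock genes was described over the 12 leaf libraries, by Pearson's r of log2(CPM + 1) among 14249 identifiers with a mean of at least 5 CPM. The libraries fall into the 2 sampling days, so r mostly reflects the contrast between days, and many identifiers reach high values. Outside the 9 clock genes, the 3 most like CCA1 were BBX19 (AT4G38960, a B-box factor on the list of output genes, r = 0.998), AT1G50020 (r = 0.997) and AT2G34720 (r = 0.997). Among the 100 most like CCA1 were LHY and PRR9, 4 further clock genes (LNK2, LNK3, LNK4 and RVE4) and 4 output genes (BBX19, COL1, CDF2 and CDF5). The 3 most like GI were AT1G80510 (r = 0.997), AT3G60880 (r = 0.996) and AT1G80920 (r = 0.995), and PRR5, TOC1, COR27, COR28, LKP2 and GRP7 were among its 100 most like. Within the clock genes, TOC1 mirrored CCA1 (r = -0.996) and RVE8 followed it least closely of the morning genes (r = 0.796).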

How the data were processed

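Polyadenylated RNA of whole roots and leaves was sequenced as paired-end reads, per the labels' protocols. The submitters' processing notes name Trim Galore, Bowtie2 and kallisto, without versions or roles, and name no reference. The authors deposited estimated counts per row for 24 libraries, and 0.991% of the values above 0 are whole numbers to within 1e-09. Rows were summed per identifier and the sums rounded to whole numbers. Low values of row 3 of PRR7 lay near multiples of a step of 13.6 units, with 15 of 20 values within 0.1 step. Rows 2 and 4 of LHY, examined in the same way, had only 6 of 17 and 6 of 13 values that near. In some rows 1 read may thus be worth more than 1 estimated count, and low levels may be less precise than they look.

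Sums were tested with edgeR 4.0.16 in R 4.3.3 (quasi-likelihood, TMM factors, filterByExpr, Benjamini-Hochberg over all identifiers tested), with 12 libraries of a tissue in each fit, or all 24 for comparisons between tissues. The standard error of a log2 fold was taken from its F value. The SAB tests of each tissue and day were also run on simulated counts with known changes, and the comparisons of days and of tissues were not. The alternatives were the size factors of DESeq2, no scaling, no filter, DESeq2 1.42.0, voom in limma 3.58.1, single rows, other sets of libraries, replicate blocks and leaving out each library.

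The clock genes and lists were chosen with earlier results of these data known. In each SAB comparison, up to 4 called genes of a list were named, by smallest adjusted p, among genes whose mean reached 5 CPM in 1 of the compared groups. Names are those of the Arabidopsis genes with these identifiers, and the files do not pair them with Brassica genes. Replicate numbers do not pair SAB with untreated libraries: the correlation of deviations from group means lay between -0.0701 and 0.205. Root and leaf libraries sharing a number correlated at 0.386 to 0.478 at day 18 and at 0.00746 to 0.155 at day 8. The tests between tissues left these numbers out, except in the replicate blocks among the alternatives.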

Additional observations from a re-analysis of the deposited data

Results flagged for a closer look

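The difference between the days was compared between roots and leaves by an edgeR test added after the data were seen. Of all identifiers it called 15.7% higher and 14.5% lower in SAB plants, and 10.8% higher and 10.4% lower in untreated plants. The difference, root minus leaf on the log2 scale, was called for 7 of 9 clock genes in each treatment. In SAB plants it was -4.00 for CCA1, -4.77 for LHY, -4.81 for PRR9, 4.22 for PRR5, 3.83 for TOC1, 1.59 for GI and 6.83 for ELF4. In untreated plants it was -3.63 for CCA1, -3.52 for LHY, -5.87 for PRR9, 4.13 for PRR5, 3.75 for TOC1, 1.46 for GI and 5.94 for ELF4. All 3 libraries of each leaf and root group entered these values, and the clock genes not called were RVE8, at -0.74 in SAB plants and -0.50 in untreated plants, and PRR7, at 0.00 and -0.13.

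In leaves the SAB effect on RVE7 differed between day 18 and day 8, by -2.09 (edgeR adjusted p = 0.0109), and the call was kept in 19 of 19 alternatives. The SAB effect on LNK3 at day 8 differed between root and leaf by -1.39 (edgeR adjusted p = 0.0453). LNK3 averaged 10.2 CPM in SAB roots and 11.8 CPM in untreated roots, and 2.16 CPM in SAB leaves against 0.957 CPM in untreated leaves, and the call was kept in 11 of 31 alternatives.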

How the results depend on the processing

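In leaves the clock genes called between the days, other than RVE8, kept their call and direction in all 19 alternatives, from scaling and filter to each library left out. For RVE8 the adjusted p reached 0.101 in SAB leaves and 0.0752 in untreated leaves without single libraries, and 9 of 12 such fits kept the call in each. Counts of called clock genes moved as follows. For these alternatives the number of all identifiers called is given only for SAB in roots of day 8 with DESeq2. No result about the clock genes is read from the counts here or in the next paragraph. DESeq2 called 1 higher in SAB leaves of day 18, 1 lower for the change of the SAB effect in leaves, 1 higher and 2 lower in SAB roots of day 8, 1 higher and 1 lower for that change in roots, and 1 lower for the root minus leaf difference at day 8. DESeq2 also gave 4 lower, against 3, between the days in SAB roots and in untreated roots, and 6 lower, against 5, for root over leaf in SAB plants of day 8. The root minus leaf difference at day 8 had 1 lower with the size factors of DESeq2 in edgeR, with single rows and with a replicate block for root and leaf libraries that share a number. All 24 libraries in a single fit gave 2 lower in SAB roots of day 8 and 4 lower between the days in SAB roots and in untreated roots. Voom gave 4 lower between the days in SAB roots, and 0 higher for root over leaf in SAB plants of day 18, where edgeR gave 1. Single rows gave 5 genes lower, against 3, for the root minus leaf difference between the days in untreated plants, where a gene counts if any row is called. A pseudocount of 5 CPM gave 0.68, against 1.06, for morning minus evening genes in roots of day 8. GI in untreated plants of day 18 turned to 0.21 for root over leaf without scaling.

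Leaving out 1 library at a time, the lower count ran from 3 to 5 between the days in SAB roots, from 2 to 4 in untreated roots, from 0 to 1 for SAB in roots of day 8 and from 0 to 1 for the root minus leaf difference at day 8, and the higher count from 0 to 2 for root over leaf in SAB plants of day 18. With replicate numbers as a block the counts of calls were 0 in the SAB comparisons of each tissue and day, and the block ended the calls of RVE8 between the days in SAB leaves (adjusted p = 0.0501) and of PRR7 in untreated roots (adjusted p = 0.0689) and added RVE8 for root over leaf in SAB plants of day 8 (adjusted p = 0.0471). Over all identifiers, SAB calls in roots of day 8 numbered 14 with edgeR and 536 with DESeq2. The cause of these shifts was not tested.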
